A study of Mus musculus with 12 samples.

Results

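A set of 31 genes of homologous recombination and the Fanconi pathway was followed in mouse LSK cells on 12 arrays. The genes were taken by their symbol in the scanner output, and where several probes carried 1 symbol, the one of highest average signal was used. Of the 31 genes, 30 had a probe; Rad51c had none and was not analysed here. The test covered 27 of them, among 23793 genes in all. The probes of Chek2, Fancb and Xrcc2 were well above background on 4, 3 and 0 of the 12 arrays and on all 3 arrays of no group, so these 3 genes were not tested.

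LSK cells lack the surface markers of mature lineages, carry Sca-1 and Kit, and hold the stem cells and early progenitors of blood. They were sorted by flow cytometry from male DBA2/J mice, whose age was not given. The marrow group came from mice given PBS. The other groups came from peripheral blood after a mobilizing treatment: 9 injections within 5 days of G-CSF, a cytokine that drives granulocyte production; AMD3100, an antagonist of the chemokine receptor CXCR4, for 1 hour; or CWHM-823, an inhibitor of the integrin VLA-4, with tGro-b, a truncated agonist of CXCR2, for which no time was given. Each group had 3 arrays. Whether each array stands for a mouse of its own is not stated in the labels. The p-values therefore refer to the spread between these samples, which may be technical. No blood of untreated mice was measured, so in every comparison with marrow treatment and tissue cannot be told apart, and the treatment times differ as well.

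Homologous recombination repairs broken chromosomes and collapsed replication forks by copying an undamaged sister chromatid. The kinases Atm and Atr sense the damage, the Mre11a, Rad50 and Nbn complex and its partners resect the broken end, and Brca1, Palb2 and Brca2 prepare the resected end for the search for a matching sequence. The Fanconi core complex attaches ubiquitin to Fancd2 and Fanci at interstrand crosslinks and hands the lesion to nucleases and to recombination. Inherited loss of Fanconi genes in people causes bone marrow failure, and blood stem cells are among the cells that depend most on the pathway.

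Levels are given as log2 of the processed signal relative to the 75th percentile of the same array, so that 0 is the level of that percentile and negative levels lie below it. A level can be compared between arrays for 1 probe but not between probes. The 75th percentile lay between 1146 and 2724 intensity units, and 70.8 to 83.4% of probes were well above background. It was lowest on the AMD3100 arrays, at 1146, 1577 and 1581 units, against 1647 or more on every other array. On the AMD3100 arrays 70.8, 78.8 and 73.7% of probes were well above background, against 72.5 to 83.4% on the others. Dimmer arrays and AMD3100 treatment thus go together, and the part of array brightness in the results was not tested. Kit was at 3.05 to 3.64 on the 12 arrays, and Ly6a, the gene of Sca-1, was above background on all of them. Of 8 LSK surface markers, 3 were called higher and 0 lower than in marrow after G-CSF (1.18% and 0.555% of all genes). After AMD3100 1 was lower and 0 higher (0.908% and 0.513% of all genes), and Slamf1 was above background on 0 arrays. After CWHM-823+tGro-b 0 were called. Ly6a was at 0.61 to 0.81 after G-CSF and at -1.10 to -0.76 in marrow. The part of these markers in the results was not tested. Marrow array 3 stood apart: 9 neutrophil markers had a mean level of 0.93 there, of -2.14 and -2.78 on marrow arrays 1 and 2, and of -3.58 to -2.31 in blood. Some counts of genes called against marrow, and some calls of single genes, are therefore also given without it. The counts of genes without overlap and the counts over slides always include it. Each slide held 1 array of every group, and values with the slide as a block are called blocked.

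The genes that passed the test in at least 1 comparison were Neil3, Brca2, Atr and Mre11a. Each rests on a single probe of 60 bases, and these are printed because every value of the gene is the signal of that sequence. Positions are those of the mm9 assembly in the scanner output, and exon annotation of that assembly was not used here. The Neil3 probe lies on the minus strand at chr8:54672466-54672525, the Brca2 probe on the plus strand at chr5:151372225-151372284, the Atr probe on the plus strand at chr9:95851956-95852015 and the Mre11a probe on the plus strand at chr9:14638340-14638399.
Neil3 probe: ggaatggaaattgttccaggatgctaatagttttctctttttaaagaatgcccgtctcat
Brca2 probe: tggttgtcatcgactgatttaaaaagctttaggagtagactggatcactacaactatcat
Atr probe: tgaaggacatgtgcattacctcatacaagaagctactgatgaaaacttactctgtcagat
Mre11a probe: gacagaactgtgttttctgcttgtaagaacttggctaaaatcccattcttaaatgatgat

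Promoter windows of 300 bases (250 before and 50 after the gene's start) were at hand for 24 of the 31 genes in RefSeq's GRCm38.p6 annotation. They were searched on both strands, with overlaps allowed, for 3 promoter motifs that occur in genes expressed in dividing cells and in other genes. The first was the site of E2F factors, written as TTTGGCGC, TTTCCCGC, TTTCGCGC or TTTGCCGC. It was found in 5 of the 24 genes, Bard1, Brca2, Chek2, Fancg and Rad51c, and in 2.26% of all 32851 windows. The CCAAT box was found in 15 of the 24 genes and in 37.4% of all windows. The core of the cell cycle homology region, TTTGAA, was found in 1 gene, Bard1, and in 17.9% of all windows. A match is a description of these letters and not a tested site.

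The 250 bases before the start are printed, with matches in capitals, for Brca2 and Bard1, which hold an E2F word, for Mre11a, which holds 2 CCAAT boxes, and for Neil3, in which none of the 3 motifs was found. The E2F word of Brca2 begins 168 bases and that of Bard1 209 bases before the start, and the CCAAT boxes of Mre11a begin 73 and 38 bases before it. No printed match overlapped another. The windows are chr5:150522371-150522620 on the plus strand, chr1:71102973-71103222 on the minus strand, chr9:14784404-14784653 on the plus strand and chr8:53639066-53639315 on the minus strand, all in GRCm38.p6.
Brca2 promoter: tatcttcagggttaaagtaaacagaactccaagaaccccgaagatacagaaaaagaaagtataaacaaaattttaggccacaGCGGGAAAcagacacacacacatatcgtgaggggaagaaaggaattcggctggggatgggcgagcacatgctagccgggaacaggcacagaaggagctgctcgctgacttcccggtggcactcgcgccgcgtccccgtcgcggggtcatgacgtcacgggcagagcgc
Bard1 promoter: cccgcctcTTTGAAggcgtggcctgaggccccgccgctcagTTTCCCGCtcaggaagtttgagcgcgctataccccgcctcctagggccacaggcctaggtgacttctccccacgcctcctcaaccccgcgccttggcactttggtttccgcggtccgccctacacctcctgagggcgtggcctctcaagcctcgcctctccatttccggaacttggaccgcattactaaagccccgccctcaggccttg
Mre11a promoter: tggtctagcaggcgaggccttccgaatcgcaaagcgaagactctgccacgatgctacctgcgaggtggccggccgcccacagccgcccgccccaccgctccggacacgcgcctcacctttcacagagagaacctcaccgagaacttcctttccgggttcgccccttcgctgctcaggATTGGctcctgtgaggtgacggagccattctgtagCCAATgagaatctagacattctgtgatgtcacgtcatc
Neil3 promoter: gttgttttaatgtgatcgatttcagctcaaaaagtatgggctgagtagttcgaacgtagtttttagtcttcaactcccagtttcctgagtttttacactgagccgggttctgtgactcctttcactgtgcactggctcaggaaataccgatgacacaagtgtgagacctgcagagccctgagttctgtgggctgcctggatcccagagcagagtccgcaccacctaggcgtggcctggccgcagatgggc

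In blood after AMD3100, 2 of the 27 genes fell against marrow, Brca2 and Neil3, and 0 rose (adjusted p under 0.05 in limma, adjusted by Benjamini-Hochberg over all 23793 genes). Among all genes, 0.908% were called lower and 0.513% higher. With the slide as a block, 10 of the 27 were lower and 0 higher, where 7.7% of all genes were called lower and 5.84% higher. These were Atr, Mre11a, Rad50, Bard1, Brca2, Fance, Fancl, Fanci, Fancd2 and Neil3. With the block and without marrow array 3 the count was 9, Fance being lost. Without the block it was 1 (Brca2) when marrow array 3 was left out and 0 when marrow array 1 or marrow array 2 was. The shares of all genes called in these left-out fits are not given here, so their counts are not set against a background. The median difference of the 27 genes was -0.55 on the log2 scale, against 0.11 for all genes, and 18 of the 27 lay below 0, against 10191 of the 23793.

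The AMD3100 and marrow arrays did not overlap for 14 of the 27 genes, all 14 lower in blood, where 11.9% of all genes were lower without overlap; Palb2 alone was higher without overlap (14.6% of all genes). On each of the 3 slides the AMD3100 array lay below the marrow array for 15 genes (23.2% of all genes) and above it for 5, which were Chek1, Palb2, Rad54b, Fanca and Fancc (32.2% of all genes). The median of the 27 genes was -0.25, -0.67 and -0.75 on slides 1, 2 and 3, against 0.19, 0.07 and 0.04 for all genes. In these bulk samples, fewer cells that express a gene and less RNA per cell cannot be told apart.

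**Figure D1:**
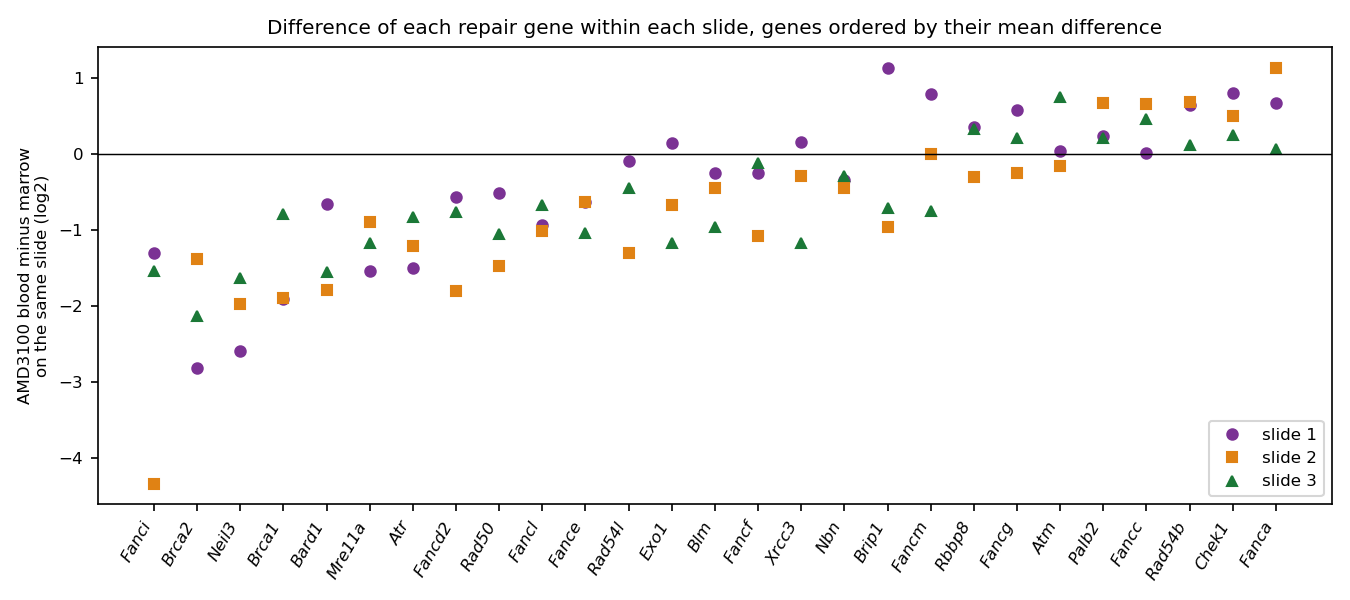
Each point is the AMD3100 level minus the marrow level of 1 gene on 1 of the 3 slides (log2, vertical axis), with the 27 tested genes ordered along the horizontal axis by their mean difference. For 15 genes all 3 points lie below 0 and for 5 all 3 lie above it; the lowest point is that of Fanci on slide 2, at -4.34, where the AMD3100 signal was not above background.

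In blood after G-CSF, 1 of the 27 genes fell against marrow, Neil3, and 0 rose (0.555% of all genes were called lower and 1.18% higher). Blocked, 2 were lower, Fancd2 and Neil3, where 11.3% of all genes were called lower, so that the blocked share was below the background. Without the block the count was 0 when any of marrow arrays 1, 2 and 3 or G-CSF arrays 1 and 3 was left out, and Neil3 then had adjusted p-values of 0.0523 to 0.0971. The median of the 27 genes was -0.48, against -0.25 for all genes, and 23 of the 27 lay below 0, against 15056 of the 23793. The arrays did not overlap for 10 genes that were lower in blood (13.7% of all genes) and for 2 that were higher, Rbbp8 and Rad54l (11.7%).

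In blood after CWHM-823+tGro-b, 0 of the 27 genes passed against marrow in limma, where 0.0294% of all genes were called lower and 0.34% higher. At an unadjusted p under 0.05, Bard1, Brca2, Blm and Neil3 were lower, 4 genes (3.14% of all genes), and 0 were higher (2.52%). Blocked, 1 gene was lower, Neil3 (0.311% of all genes), and 0 with the block and without marrow array 3. The median was -0.32, against -0.05 for all genes. For 7 genes the arrays did not overlap and blood was lower (5.27% of all genes), and for 0 genes was blood higher without overlap (4.46%). The 3 comparisons share their marrow arrays, so a gene low in all of them is not seen independently in each.

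**Figure D2:**
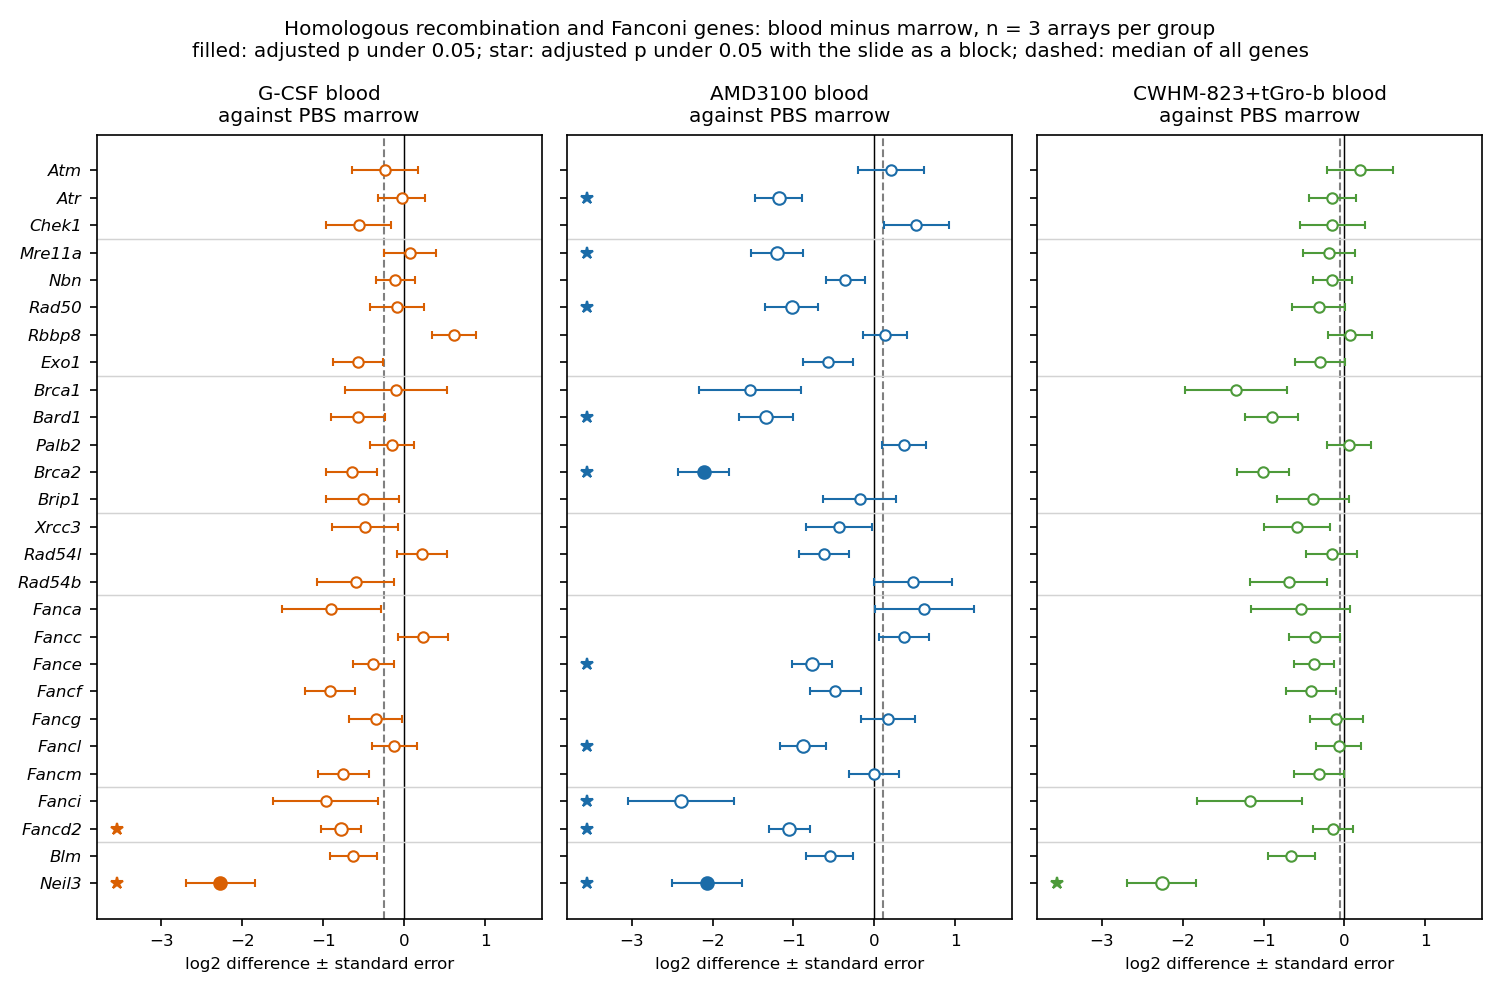
The log2 difference between each blood group and marrow (horizontal axis, ± standard error from limma, n = 3 arrays per group) is shown for the 27 tested genes, grouped by role. Filled points passed at an adjusted p under 0.05, stars mark genes that passed with the slide as a block, and the dashed line is the median of all genes (-0.25, 0.11 and -0.05); Neil3 lies at -2.27, -2.07 and -2.26 in the 3 panels.

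Among the damage sensors, Atr was lower after AMD3100 than in the other groups, and the probe used for Atm was not called in any comparison. Atr is the kinase that answers to single-stranded DNA at stalled forks. Its level was 0.03, -0.37 and -0.76 on marrow arrays 1, 2 and 3, 0.01, -0.49 and -0.72 after G-CSF, -1.46, -1.59 and -1.60 after AMD3100, and -0.13, -0.78 and -0.66 after CWHM-823+tGro-b. All AMD3100 arrays lay below every other array, and the other 3 groups overlapped. The difference between AMD3100 blood and marrow was -1.18 ± 0.29 (standard error, n = 3 per group), a 2.27-fold lower level. It did not pass in limma (adjusted p = 0.0689) and passed with the slide as a block (adjusted p = 0.00806).

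Atm, the kinase that answers to double-strand breaks, was at -2.42, -2.68 and -1.92 in marrow, -2.60, -2.55 and -2.57 after G-CSF, -2.38, -2.84 and -1.17 after AMD3100 and -2.77, -1.72 and -1.96 after CWHM-823+tGro-b on the probe used. The 4 groups overlapped there. Its 95% confidence interval for AMD3100 blood minus marrow ran from -0.69 to 1.11 on that probe. A second Atm probe was at -3.45, -3.47 and -3.10 in marrow, -3.21, -3.98 and -3.30 after G-CSF, -4.24, -4.15 and -3.78 after AMD3100 and -3.34, -3.58 and -3.23 after CWHM-823+tGro-b, and was above background on all arrays but the 3 of AMD3100. There AMD3100 lay below marrow by -0.71 ± 0.26 (adjusted p = 0.175, blocked 0.0371 in limma over all probes), and by a bound explained with Brca1 marrow was at least 1.23-fold higher. On that second probe AMD3100 also lay below G-CSF blood (adjusted p = 0.112, blocked 0.0263) and CWHM-823+tGro-b blood (0.206, blocked 0.0421) in the same limma fits. Chek1, the checkpoint kinase that Atr activates, was 0.52 ± 0.40 higher after AMD3100 than in marrow (adjusted p = 0.507 in limma) and 0.56 lower after G-CSF (-0.56 ± 0.40, adjusted p = 0.41). Chek2, the kinase downstream of Atm, was not tested and was above background on 0 AMD3100 arrays.

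Of the 5 genes of end resection, 0 passed against marrow in any blood group in limma; after AMD3100, Mre11a and Rad50 were lower in the blocked fit. Mre11a, the nuclease of the complex, was at -0.53, -0.28 and -0.48 in marrow, -0.11, -0.20 and -0.77 after G-CSF, -2.07, -1.17 and -1.66 after AMD3100 and -0.28, -0.35 and -1.23 after CWHM-823+tGro-b. The AMD3100 arrays lay below all marrow and G-CSF arrays, and array 3 of CWHM-823+tGro-b lay among them. Against marrow the difference was -1.20 ± 0.32 after AMD3100 (adjusted p = 0.0892, blocked 0.0227 in limma), 0.07 ± 0.32 after G-CSF and -0.19 ± 0.32 after CWHM-823+tGro-b.

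Rad50, the ATPase that tethers the ends, was -1.02 ± 0.33 lower after AMD3100 (adjusted p = 0.137, blocked 0.0152 in limma) and within 0.32 of marrow in the other blood groups. Nbn, the subunit that recruits Atm, differed by -0.36 ± 0.24 after AMD3100 and by -0.11 and -0.15 after the other treatments. Rbbp8, the resection factor CtIP, was the gene with the highest value in the G-CSF comparison (0.62 ± 0.27, adjusted p = 0.233 in limma), and its 3 G-CSF arrays (1.45 to 1.95) lay above its 3 marrow arrays (0.64 to 1.36). A second Rbbp8 probe went the other way, with G-CSF below marrow on each of the 3 slides (-0.49 ± 0.50, adjusted p = 0.55 over all probes). Exo1, the long-range exonuclease, was lower by similar amounts after G-CSF (-0.57 ± 0.31) and AMD3100 (-0.57 ± 0.31) and overlapped with marrow in both.

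Brca2, which acts on resected DNA beside Palb2, had the clearest difference of the set after AMD3100. It was at -0.13, -0.19 and -0.19 in marrow, -0.73, -0.68 and -1.04 after G-CSF, -2.95, -1.56 and -2.32 after AMD3100 and -0.95, -1.11 and -1.49 after CWHM-823+tGro-b. Every blood array lay below every marrow array, and every AMD3100 array lay below every other array. Brca2 fell by 2.11 ± 0.32 after AMD3100 (-2.11, a 4.31-fold lower level), with an adjusted p of 0.0107 in limma and of 0.00431 to 0.0538 over 23 alternatives. It lost the call when marrow array 1 (adjusted p = 0.0538) or marrow array 2 (0.0505) was left out, and kept it without marrow array 3 (0.0319). After G-CSF the difference was -0.65 ± 0.32 (adjusted p = 0.276) and after CWHM-823+tGro-b -1.01 ± 0.32 (adjusted p = 0.426), and neither passed.

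Brca1, the ubiquitin ligase that opens the way to recombination, was at -3.45, -3.34 and -3.35 in marrow, -2.57, -3.93 and -3.96 after G-CSF, -5.37, -5.25 and -4.15 after AMD3100 and -4.19, -3.61 and -6.37 after CWHM-823+tGro-b. Its probe was above background on all marrow and G-CSF arrays, on 0 AMD3100 arrays and on 1 CWHM-823+tGro-b array, so after AMD3100 there is only a bound. For the bound, each AMD3100 array was given the dimmest signal that any probe well above background had there, unless the Brca1 signal was brighter, and marrow was then at least 1.2-fold higher than AMD3100 blood. The measured difference was -1.54 ± 0.63 and did not pass in limma (adjusted p = 0.218, blocked 0.135).

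Bard1, the partner of Brca1, differed by -1.34 ± 0.33 after AMD3100 (adjusted p = 0.0748, blocked 0.0167 in limma), by -0.90 ± 0.33 after CWHM-823+tGro-b and by -0.57 ± 0.33 after G-CSF on the probe used. Brip1, the helicase that binds Brca1, differed by -0.18 ± 0.45, -0.39 ± 0.45 and -0.51 ± 0.45 in the same order. Palb2, which links Brca1 to Brca2, was at 0.37 ± 0.27 after AMD3100 on the probe used, the only one of these 5 genes above 0.

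**Figure D3:**
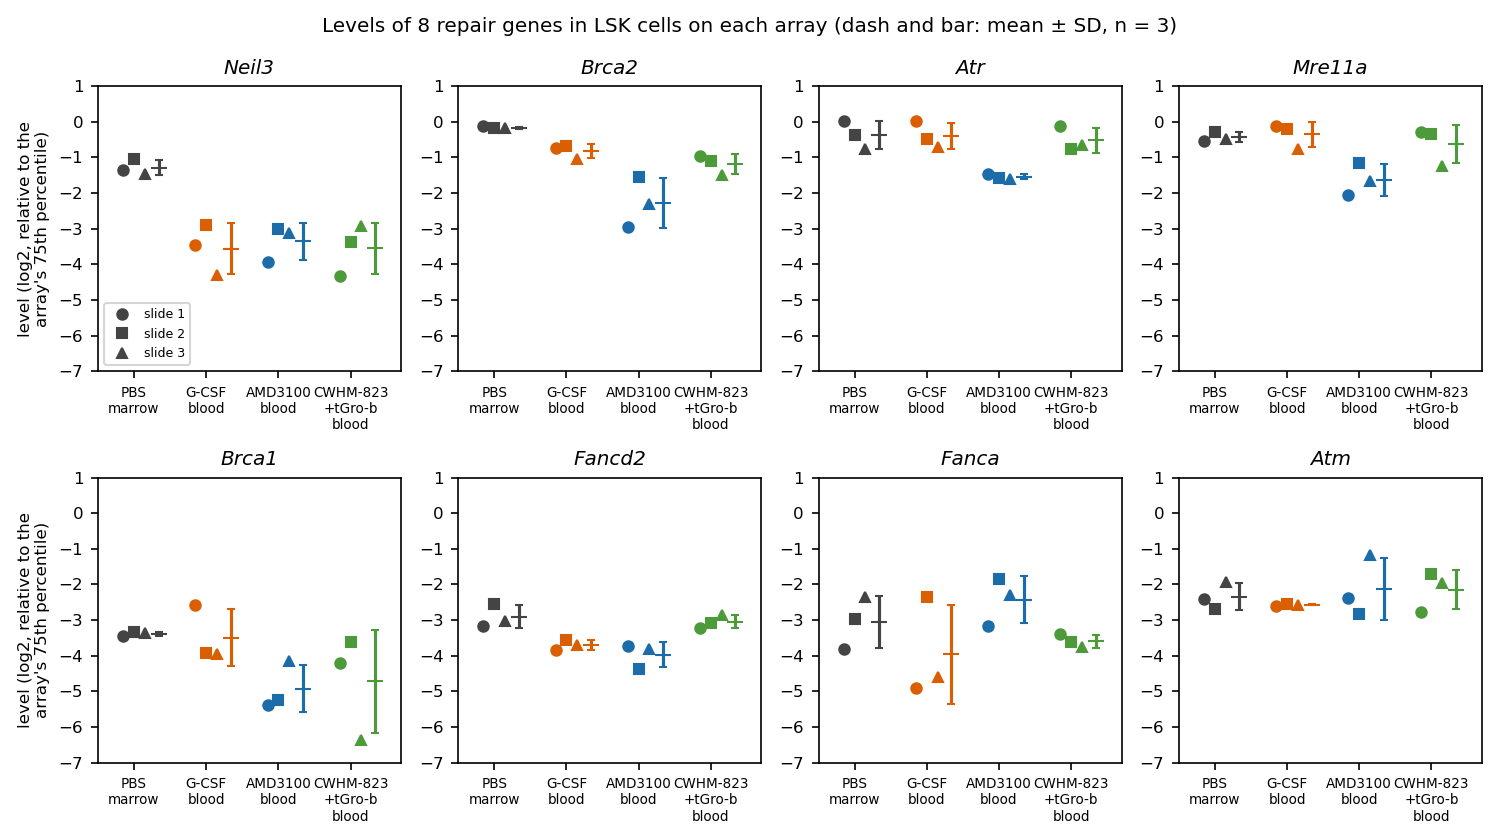
The level of 8 genes on each of the 12 arrays (log2 relative to the array's 75th percentile, vertical axis) is shown by group (horizontal axis), with 1 symbol per slide and the mean ± SD of 3 arrays beside them. Brca2 and Atr show all 3 AMD3100 arrays below every other array, Neil3 shows marrow at -1.47 to -1.04 above all blood arrays, and the Atm probe used overlaps across the 4 groups.

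Xrcc3, Rad54l and Rad54b, which act when the broken end pairs with the matching duplex, held 0 called genes in the comparisons with marrow, blocked or not. Rad54l, a DNA-dependent motor protein, was at 0.01, -0.03 and 0.05 in marrow, at 0.06 to 0.33 after G-CSF and at -1.34 to -0.09 after AMD3100. It differed from marrow by 0.22 ± 0.31 after G-CSF and by -0.62 ± 0.31 after AMD3100 (adjusted p = 0.31 in limma). Xrcc3 was 0.44 to 0.59 log2 units below marrow in the 3 blood groups and overlapped with it in each (-0.48, -0.44 and -0.59 after G-CSF, AMD3100 and CWHM-823+tGro-b, each ± 0.41). Rad54b, a relative of Rad54l, is taken up with the genes that have several probes.

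Among the 7 tested genes of the Fanconi core complex and its anchor Fancm, 0 passed against marrow in limma, and Fance and Fancl were lower after AMD3100 in the blocked fit. Fancl, the ubiquitin ligase subunit, was at 1.04, 0.84 and 0.24 in marrow and at 0.10, -0.18 and -0.45 after AMD3100, a difference of -0.88 ± 0.28 (adjusted p = 0.128, blocked 0.0106). Fance, the subunit that binds Fancd2, was at 0.88, 0.44 and 0.46 in marrow and at 0.24, -0.19 and -0.58 after AMD3100, a difference of -0.77 ± 0.25 (adjusted p = 0.141, blocked 0.0377). After G-CSF the lowest values were those of Fancf, an adaptor subunit (-0.92 ± 0.31, adjusted p = 0.157), Fanca (-0.90 ± 0.61) and Fancm, the translocase that brings the complex to DNA (-0.75 ± 0.31, adjusted p = 0.216). Fancc and Fancg, also subunits of the core, were within 0.37 of marrow in every blood group on the probe used. A second Fancc probe differed by 0.54 ± 0.25 after G-CSF (adjusted p = 0.259 over all probes). After CWHM-823+tGro-b the probes used for the 7 genes lay below marrow by no more than 0.54, and 0 passed. Second probes lay further below, at -1.06 ± 0.60 for Fanca, -0.76 ± 0.30 for Fance and -0.59 ± 0.37 for Fancl, and did not pass either.

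Fanca, the core subunit most often lost in Fanconi anaemia, was at -3.82, -2.98 and -2.35 in marrow, -4.90, -2.36 and -4.60 after G-CSF, -3.16, -1.85 and -2.29 after AMD3100 and -3.40, -3.61 and -3.76 after CWHM-823+tGro-b on the probe used. That probe was above background on 3, 1, 2 and 3 arrays of these groups. Marrow overlapped with every blood group.

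Fanci and Fancd2, the pair that the core complex modifies, were both lower after AMD3100 in the blocked fit. Fancd2 was at -3.16, -2.55 and -3.03 in marrow, -3.83, -3.57 and -3.70 after G-CSF, -3.73, -4.37 and -3.81 after AMD3100 and -3.21, -3.07 and -2.86 after CWHM-823+tGro-b. The G-CSF and AMD3100 arrays lay below all marrow and CWHM-823+tGro-b arrays. The difference from marrow was -0.78 ± 0.25 after G-CSF (adjusted p = 0.14, blocked 0.0453 in limma) and -0.14 ± 0.25 after CWHM-823+tGro-b. After AMD3100 it was -1.05 ± 0.25 (adjusted p = 0.068, blocked 0.0242); the probe was above background on 0 of these 3 arrays, and by the bound marrow was at least 1.66-fold higher. Fanci was at -1.38, -1.44 and -1.73 in marrow and at -2.69, -5.78 and -3.26 after AMD3100, where array 2 was not above background. Its difference was -2.39 ± 0.65 and did not pass (adjusted p = 0.0906, blocked 0.0252). Without AMD3100 array 2 it was -1.46 ± 0.41 (adjusted p = 0.162).

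Neil3, a glycosylase that unhooks interstrand crosslinks at stalled forks, was low in all 3 blood groups. It was at -1.36, -1.04 and -1.47 in marrow, -3.45, -2.91 and -4.31 after G-CSF, -3.95, -3.02 and -3.11 after AMD3100 and -4.33, -3.38 and -2.93 after CWHM-823+tGro-b. No blood array reached the lowest marrow array, and the blood groups overlapped with each other. Its probe was above background on all marrow and G-CSF arrays and on 2 arrays each of the other groups. Neil3 fell 4.81-fold after G-CSF (-2.27 ± 0.43, adjusted p = 0.0209 in limma, 0.01 to 0.0971 over 22 alternatives) and 4.20-fold after AMD3100 (-2.07 ± 0.43, adjusted p = 0.0381, 0.00662 to 0.139 over 22 alternatives). After CWHM-823+tGro-b it was as low, at -2.26 ± 0.43, with an adjusted p of 0.0536 that missed the threshold and a blocked one of 0.0282 (0.0168 to 0.228 over 22 alternatives).

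Neil3's differences were smaller after normexp background correction, at -1.33, -1.20 and -1.42 after G-CSF, AMD3100 and CWHM-823+tGro-b, and the AMD3100 call was then lost (adjusted p = 0.0669). Leaving out any marrow array ended both of its calls, and the AMD3100 call was also lost without any 1 AMD3100 array (adjusted p = 0.06 to 0.136), G-CSF array 1 (0.0577) or CWHM-823+tGro-b array 2 (0.0536). Altogether the AMD3100 call of Neil3 was lost in 10 of 22 alternatives, among them the fit without a filter on dim probes. Between blood groups Neil3 was called in 0 comparisons. Blm, a helicase that dissolves crossed strands and works beside the Fanconi proteins, was lower in each blood group by a like amount (-0.63, -0.55 and -0.66 after G-CSF, AMD3100 and CWHM-823+tGro-b, each ± 0.29). Its blood arrays (-2.91 to -2.04) all lay below its marrow arrays (-1.95 to -1.74), and 0 of these differences passed in limma (adjusted p = 0.25, 0.324 and 0.822; blocked 0.0764, 0.128 and 0.268).

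The 8 genes called lower after AMD3100 in the blocked fit alone had adjusted p-values of 0.068 to 0.141 without the block and of 0.00806 to 0.0377 with it. Over their 21 to 23 alternatives the adjusted p ran from 0.0045 to 0.532, and each had the same sign in all alternatives except Bard1, which was above 0 when the mean of its probes was taken.

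Of the 27 genes, 10 had more than 1 probe that passed the filter, 38 probes in all for the 27, and the probes of 1 gene did not always move together. After AMD3100 the probes of 6 genes, Atm, Bard1, Palb2, Rad54b, Fanca and Fancc, differed in sign. When all 29495 probes were tested singly, 2 of the 38 were called lower (Brca2 and Neil3) and 1 higher (a second probe of Bard1), where 1.16% of all probes were called lower and 0.559% higher. Blocked, 14 of the 38 were lower, where 8.13% of all probes were, and these included second probes of Atm, Palb2 and Rad54b that the probe chosen for the gene does not show.

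The sequences of the discordant pairs of Rad54b, Palb2 and Fanca, and of the 3 probes of Bard1, are printed so that the reported transcript stretches can be told apart. The probe used stands first. The second Rad54b probe lies at chr4:11542714-11542773 on the plus strand, and the scanner output places the first nowhere. The Palb2 probes lie at chr7:129256813-129256872 and chr7:129251027-129251086, the Fanca probes at chr8:125826045-125826104 and chr8:125792210-125792269, and the Bard1 probes at chr1:71074294-71074353, chr1:71094217-71094276 and chr1:71074902-71074961, all on the minus strand of mm9.
Rad54b probe, first: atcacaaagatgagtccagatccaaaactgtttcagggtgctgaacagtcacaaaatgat
Rad54b probe, second: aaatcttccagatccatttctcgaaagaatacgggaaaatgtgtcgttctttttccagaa
Palb2 probe, first: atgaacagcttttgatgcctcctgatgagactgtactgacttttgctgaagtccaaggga
Palb2 probe, second: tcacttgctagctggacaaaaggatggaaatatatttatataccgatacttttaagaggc
Fanca probe, first: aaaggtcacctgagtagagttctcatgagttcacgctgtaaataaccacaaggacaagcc
Fanca probe, second: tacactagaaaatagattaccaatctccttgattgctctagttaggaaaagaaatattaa
Bard1 probe, first: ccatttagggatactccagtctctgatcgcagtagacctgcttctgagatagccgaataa
Bard1 probe, second: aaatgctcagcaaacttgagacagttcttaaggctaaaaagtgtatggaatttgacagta
Bard1 probe, last: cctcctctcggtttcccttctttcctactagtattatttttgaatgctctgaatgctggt

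For Rad54b the first probe was at -1.90, -1.01 and -2.05 in marrow and -1.26, -0.32 and -1.93 after AMD3100, while the second was at -2.23, -1.89 and -2.54 in marrow and -5.50, -5.24 and -3.82 after AMD3100. The difference was 0.48 ± 0.48 on the first and -2.64 ± 0.61 on the second (adjusted p = 0.0543, blocked 0.0309 in limma over all probes). The second was above background on 0 AMD3100 arrays and on 7 of the 12 arrays, so -2.64 is no measured level difference, and by the bound marrow was at least 2.69-fold higher. For Palb2 the second probe was at -1.64, -2.02 and -2.34 in marrow and -4.31, -2.71 and -3.61 after AMD3100, a difference of -1.54 ± 0.42 (adjusted p = 0.0874, blocked 0.0353), against 0.37 ± 0.27 on the first.

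For Fanca the second probe was at -3.04, -2.73 and -2.11 in marrow and -5.63, -4.69 and -2.63 after AMD3100, a difference of -1.69 ± 0.60 (adjusted p = 0.163, blocked 0.0798), against 0.62 ± 0.60 on the first in the same fit. For Bard1 the second probe was at -6.28, -4.75 and -6.09 in marrow, above background on 0 arrays there, and at -3.02, -3.01 and -3.65 after AMD3100, above background on all 3. It was called higher (2.48 ± 0.53, adjusted p = 0.0401 in limma), by the bound at least 1.84-fold, and was above background in no other group. The last Bard1 probe differed by 0.22 ± 0.30. The values of these 4 genes therefore belong to 1 probe each and not to the gene as a whole. In Rad50 (-1.02 and -0.41), Fance (-0.77 and -0.64) and Fancl (-0.88 and -0.69) both probes lay below 0 after AMD3100. The second probes of Rad50 (adjusted p = 0.434, blocked 0.261 in limma over all probes) and Fance (0.271, blocked 0.152) passed in neither fit. Each was lower on 2 of the 3 slides, so the blocked calls of Rad50 and Fance rest on 1 probe each. Both Fancl probes passed when blocked.

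**Figure D4:**
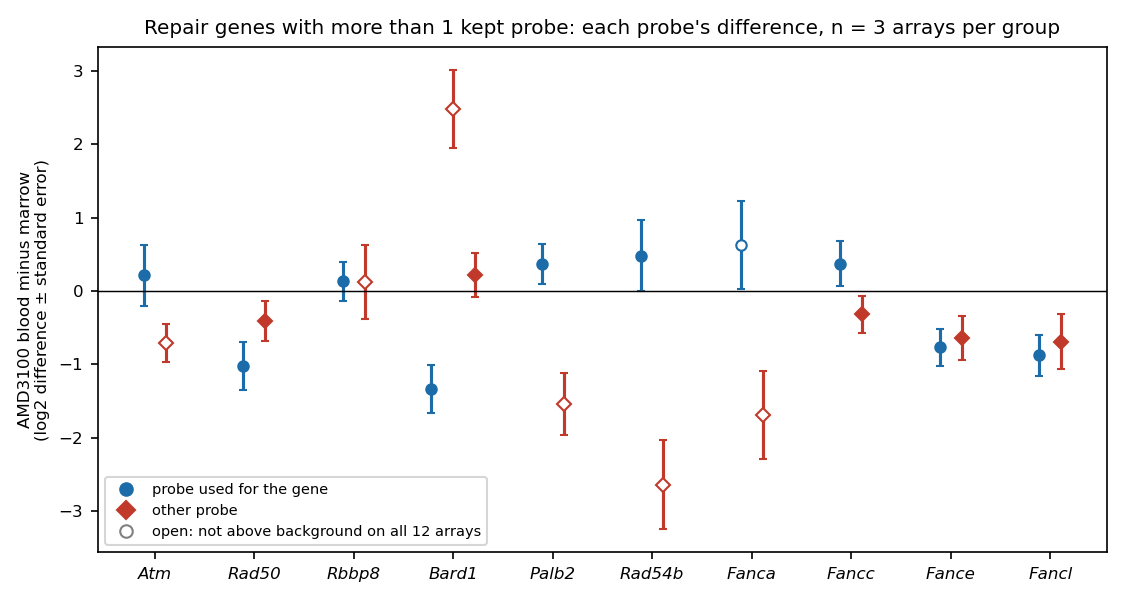
For the 10 genes with more than 1 kept probe, each point is the difference between AMD3100 blood and marrow on 1 probe (log2, vertical axis, ± standard error, n = 3 arrays per group). Circles are the probe used for the gene, diamonds its other probes, and open symbols were not above background on all 12 arrays; for Rad54b the probes lie at 0.48 and -2.64, the latter above background on 0 AMD3100 arrays.

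Blood groups were compared with each other as well. Between G-CSF and AMD3100 blood, Atr (1.15 ± 0.29, adjusted p = 0.0174), Mre11a (1.27 ± 0.32, adjusted p = 0.0186) and Brca2 (1.46 ± 0.32, adjusted p = 0.012) were higher after G-CSF, and 0 genes were lower. These 3 of 27 genes, 11.1%, are a share near the background, since 12.6% of all genes were called higher and 18.4% lower in this comparison (13.9% and 11.1% after quantile normalization, under which 5 of the 27 were higher and 0 lower). Blocked, 8 were higher, Atr, Mre11a, Rad50, Bard1, Brca2, Rad54l, Fancl and Fanci (23.1% of all genes), and 5 lower, Chek1, Palb2, Rad54b, Fanca and Fancm (39.6% of all genes). When every probe was tested singly, 5 of the 38 were higher and 1 lower (13.2% and 16.9% of all probes). These added second probes of Palb2 (1.27 ± 0.42, adjusted p = 0.0414) and Fancc (0.86 ± 0.25, 0.0283), both higher after G-CSF, and of Bard1, lower (-3.12 ± 0.53, 0.00576; at least 2.29-fold by the bound). The median of the 27 genes was 0, against -0.37 for all genes. The call of Atr was lost when G-CSF array 1 (adjusted p = 0.0765) or AMD3100 array 2 (0.053) was left out, and that of Mre11a without G-CSF array 1 (0.0758) or AMD3100 array 1 (0.064); Brca2 kept its call when any 1 array was left out, with adjusted p-values up to 0.0497.

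Between CWHM-823+tGro-b and AMD3100 blood 0 genes passed in limma, where 0.118% of all genes were called higher and 0.0294% lower. At an unadjusted p under 0.05, 5 were higher (9.61% of all genes) and 2 lower (10.3%). Blocked, 6 were higher after CWHM-823+tGro-b, Atr, Mre11a, Rad50, Brca2, Fancl and Fancd2, and 0 lower, where 8.43% of all genes were called in each direction. The difference was 1.03 ± 0.29 for Atr (adjusted p = 0.14, blocked 0.0205), 1.09 ± 0.32 for Brca2 (0.145, blocked 0.0373) and 0.92 ± 0.25 for Fancd2 (0.138, blocked 0.0357). Between G-CSF and CWHM-823+tGro-b blood 0 genes passed in limma, where 0.37% of all genes were called higher and 0.256% lower, and 0 passed when blocked (1.12% and 1.08%). At an unadjusted p under 0.05, 1 was lower (5.94% of all genes) and 0 higher (4.27%). That gene was Fancd2, lower after G-CSF by 0.65 (-0.65 ± 0.25, adjusted p = 0.423). The medians were 0.07 and 0.02, against -0.16 and -0.14 for all genes.

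Genes of the same pathway outside the 31 were counted from a list of 50, of which 40 were tested. Against marrow 0 of the 40 passed in any blood group in limma. After AMD3100 their median was -0.51, against 0.11 for all genes, and 32 lay below 0, against 10191 of the 23793. Blocked, 13 were lower and 1 higher after AMD3100 (7.7% and 5.84% of all genes), and 1 was lower and 3 higher after G-CSF (11.3% and 8.24%). The smallest p-values belonged to Rad51ap1 (-1.35 ± 0.31, adjusted p = 0.0551, blocked 0.0219), Hells, a chromatin remodeller (-1.22 ± 0.29, 0.0624, blocked 0.0208; above background on 0 AMD3100 arrays, with marrow at least 1.18-fold higher by the bound), and Rnf168, a ubiquitin ligase at breaks (-1.82 ± 0.49, 0.0925, blocked 0.0201). The Rnf168 probe was above background on 2 AMD3100 arrays. After G-CSF the median of the 40 was 0.02. Eme1, a nuclease subunit (0.81 ± 0.23, adjusted p = 0.111, blocked 0.0242), Sfr1 (0.61 ± 0.22, 0.174, blocked 0.0356), and Fan1, the nuclease recruited by Fancd2 (-0.94 ± 0.38, 0.216, blocked 0.0196), had the smallest p-values there. Between G-CSF and AMD3100 blood 13 of the 40 were higher after G-CSF and 1 lower, where 12.6% and 18.4% of all genes were. Blocked, 18 were higher and 4 lower, where 23.1% and 39.6% of all genes were.

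The other repair pathways also held 0 called genes against marrow in limma. Blocked, the counts higher and lower after G-CSF were 0 and 2 in non-homologous end joining, 1 and 3 in base excision repair, 5 and 0 in nucleotide excision repair and 0 and 1 in mismatch repair. After AMD3100 they were, in the same order of pathways, 1 and 0, 0 and 4, 1 and 1, and 0 and 3, and after CWHM-823+tGro-b 0 in each. Among all genes the blocked shares higher and lower were 8.24% and 11.3% after G-CSF and 5.84% and 7.7% after AMD3100. After CWHM-823+tGro-b they were 0.769% and 0.311%. In non-homologous end joining 12 genes were tested, with medians of -0.06 after G-CSF and -0.23 after AMD3100. The smallest p-values were those of Polm, a gap-filling polymerase (-1.32 ± 0.46, adjusted p = 0.166, blocked 0.026), Parp1 (0.52 ± 0.30, 0.331) and Lig4, the ligase (-0.83 ± 0.51, 0.355, blocked 0.0413), after G-CSF, and of Xrcc4, the partner of Lig4 (0.92 ± 0.37, 0.21, blocked 0.0448), Parp3 (-1.42 ± 0.63, 0.253) and Poll (-1.33 ± 0.60, 0.261) after AMD3100. The probes of Parp3 and Poll were above background on 1 AMD3100 array each, and that of Polm on 2 G-CSF arrays. In base excision repair, to which Neil3's relatives belong, 15 genes were tested and the medians were -0.06 and -0.43. The Neil2 probe was above background on 2 G-CSF and 2 AMD3100 arrays. Neil2 was at a lower level after G-CSF (-1.49 ± 0.35, adjusted p = 0.0564, blocked 0.0223) and after AMD3100 (-1.25 ± 0.35, 0.0965, blocked 0.0393), and Neil1 after AMD3100 (-1.35 ± 0.35, 0.0798, blocked 0.0152), all short of the threshold without the block. Apex2 (-0.68 ± 0.24, 0.168, blocked 0.0396) and Mutyh (-0.71 ± 0.26, 0.187, blocked 0.0314) followed after G-CSF, and Mbd4 (-1.36 ± 0.35, 0.0796, blocked 0.0188) had the smallest p after AMD3100.

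Nucleotide excision repair, with 16 genes tested, had a median of 0.48 after G-CSF and -0.25 after AMD3100. Ddb1, a damage sensor (0.89 ± 0.27, adjusted p = 0.122, blocked 0.0251), Gtf2h4, a subunit of TFIIH (1.16 ± 0.36, 0.122, blocked 0.0252), and Cetn2, a partner of Xpc (0.71 ± 0.23, 0.134, blocked 0.0304), had the smallest p-values after G-CSF, and Gtf2h4 (0.95 ± 0.36, 0.184, blocked 0.0483), Ercc8 (-0.79 ± 0.31, 0.195) and Gtf2h1 (-1.50 ± 0.60, 0.21) after AMD3100. The Gtf2h1 probe was above background on 0 AMD3100 arrays and on 2 marrow arrays. Mismatch repair, with 6 genes tested, had medians of -0.08 and -0.75. The Pms2 probe was above background on 1 AMD3100 array. Pms2 (-1.55 ± 0.42, adjusted p = 0.0945, blocked 0.0346) and Msh6 (-0.80 ± 0.24, 0.117, blocked 0.0134) were among the genes with the smallest p-values after AMD3100, as were Mlh3 (-0.54 ± 0.30, 0.317, blocked 0.0491) and Msh6 (0.13 ± 0.24, 0.737) after G-CSF.

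Of 13 tested target genes of p53, the factor that damage kinases activate, 2 rose after G-CSF, where 1.18% of all genes were called higher. Pmaip1, the death-promoting Noxa, rose 16.2-fold (4.02 ± 0.26, adjusted p = 1.91e-05), and Cdkn1a, the cell cycle inhibitor p21, rose 3.33-fold (1.73 ± 0.31, adjusted p = 0.0142). Pmaip1 kept its call in all 23 alternatives. Cdkn1a lost it with the mean of its probes (0.74, adjusted p = 0.246) and without marrow array 1 (0.0537), marrow array 2 (0.0772), G-CSF array 1 (0.0687) or G-CSF array 3 (0.0761). Aen followed (0.60 ± 0.22, 0.184, blocked 0.038). The 13 genes had a median of 0.42 after G-CSF and of 0.08 after AMD3100, where 0 passed; there Bbc3 (-0.93 ± 0.28, 0.112, blocked 0.0374), Pmaip1 (0.84 ± 0.26, 0.122, blocked 0.049) and Aen (-0.62 ± 0.22, 0.169, blocked 0.0405) had the smallest p-values. Blocked, 3 were higher and 1 lower after G-CSF (8.24% and 11.3% of all genes), and 1 higher and 2 lower after AMD3100 (5.84% and 7.7%). After CWHM-823+tGro-b 2 were higher and 0 lower when blocked, where 0.769% and 0.311% of all genes were.

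Many genes of recombination are known to be expressed most in dividing cells, and 2 lists of proliferation genes are given beside them. Of 27 genes of G2 and mitosis, 9 fell and 0 rose after AMD3100, where 0.908% of all genes were called lower, and 17 were lower when blocked (7.7% of all genes). Their median was -1.23. After G-CSF 2 fell, where 0.555% of all genes were called lower, and 10 were lower when blocked (11.3% of all genes), with a median of -0.70. Ccna2, cyclin A2 (-2.64 ± 0.34, adjusted p = 0.00448), Nusap1 (-1.58 ± 0.24, 0.0107) and Prc1 (-1.68 ± 0.26, 0.011), both spindle proteins, fell after AMD3100. Nusap1 (-1.27 ± 0.24, 0.0184) and Kif23 (-1.39 ± 0.31, 0.0457) fell after G-CSF, and Prc1 differed by -0.94 ± 0.26 (0.0958, blocked 0.0289). Kif23 lost its call in 16 of 23 alternatives (adjusted p up to 0.157), among them leaving out any marrow or G-CSF array. After G-CSF Nusap1 lost it in the fit of both groups alone (0.1) and without marrow array 2 (0.103), marrow array 3 (0.0696), G-CSF array 1 (0.0949) or G-CSF array 3 (0.0667). After AMD3100 Nusap1 lost it in the fit of both groups alone (0.056) and without marrow array 2 (0.0531), and Prc1 without marrow array 2 (0.054). Ccna2 kept its call in all its alternatives. After CWHM-823+tGro-b 0 passed (4 lower when blocked, against 0.311% of all genes) and the median was -0.89. The mean level of all 28 listed genes, tested or not, was -0.46 to 0.05 on the marrow arrays. It was -1.27 to -0.74 on the blood arrays, without overlap. Of the 28, 22 to 25 were above background on each AMD3100 array and 27 to 28 on each marrow array.

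Of 26 genes of S phase and replication, 1 fell after AMD3100, Tk1, thymidine kinase (-2.41 ± 0.36, adjusted p = 0.0107), and 0 rose (6 lower and 1 higher when blocked, against 7.7% and 5.84% of all genes), with a median of -0.60. Tk1 lost its call without marrow array 2 (adjusted p = 0.0502). Its probe was above background on 2 AMD3100 arrays. Rrm1 (-1.03 ± 0.26, 0.0764, blocked 0.0234) and Mcm10 (-0.99 ± 0.27, 0.0948, blocked 0.0385) came next. After G-CSF 0 passed (1 lower when blocked, against 11.3% of all genes) and the median was 0.18. Tyms (-1.14 ± 0.47, 0.219, blocked 0.0433) and Gins2 (0.59 ± 0.33, 0.321) had p-values among the smallest there. The part of proliferation in the values of the 31 genes was not tested.

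Markers of other blood cells differed between groups as well. The mean of 8 B cell markers was -1.64 to -1.35 in marrow, -2.59 to -1.72 after G-CSF, -0.70 to -0.67 after AMD3100 and -0.67 to -0.19 after CWHM-823+tGro-b, and 7 of them were tested. Of these, 1 was higher after AMD3100 (0.513% of all genes), 1 higher after CWHM-823+tGro-b (0.34%) and 1 lower after G-CSF (0.555%). The mean of 8 dendritic cell markers was -1.72 to -0.95 after G-CSF and -0.50 to 0.52 on the other arrays. Of 9 neutrophil markers, 5 to 7 were above background on each blood array and 8 to 9 on each marrow array. Among them S100a8 was above background on 0 of the 9 blood arrays and on 2 marrow arrays. S100a9 was above background on 3 marrow, 3 G-CSF, 0 AMD3100 and 1 CWHM-823+tGro-b arrays. Of 9 megakaryocyte and platelet markers, 7 were above background on every blood array, and Ppbp was on 0 of them. Monocyte markers had means of -0.29 to 0.44 on all arrays, T cell markers of -3.50 to -0.92, and erythroid markers of -1.82 to -0.15, highest on arrays 1 and 2 of CWHM-823+tGro-b. After G-CSF, 3 of 7 tested dendritic cell markers, 2 of 8 erythroid and 1 of 7 megakaryocyte markers were called lower than in marrow (0.555% of all genes). There 1 of 8 monocyte and 1 of 8 erythroid markers were higher (1.18%). After CWHM-823+tGro-b 1 of 8 erythroid markers was higher (0.34%). The part of all these markers in the results on the repair genes was not tested.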

How the data were processed

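RNA of sorted LSK cells was amplified (WTA2), labelled with the red dye and hybridized to 12 Agilent arrays of 60-base probes, 1 sample each. The deposited scanner output holds intensity values from Agilent Feature Extraction 11.5.1.1, per the submitters' processing notes and the file headers; the processed signal is background-corrected by that software. The deposited intensity table of the authors has 30354 probes, with array medians of 938 to 945 that show a common centring; its log2 values correlated with the scanner's at 0.998 to 1. The authors' steps from one to the other are not given in the sources used here, and the table was an alternative only.

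From 43020 non-control spots of 39429 probes, outlier spots were left out (146 probes had no other spot), spots of a probe were averaged, and each array's log2 processed signals were set relative to their own 75th percentile. No spot was saturated. A probe was kept if any group had it well above background on each of its 3 arrays; taking the probe of highest mean for each gene left 23793 genes. The number of arrays limits the precision. limma 3.58.1 (R 4.3.3) fitted 4 group means over the 12 arrays, with 8 residual and 3.82 prior degrees of freedom, for 6 pairwise comparisons, with Benjamini-Hochberg adjustment over all genes and a threshold of 0.05.

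Same-numbered arrays shared a slide. Their deviations from the group means correlated at 0.26 to 0.616 in all 18 same-numbered pairs (median 0.44), so same-numbered arrays varied together. The median was -0.24 in 36 other pairs. That is no separate contrast, since the deviations within each group sum to 0. A shared slide and a pairing of the samples cannot be told apart. Blocked values are given for most calls and counts that the block changes, but not for the marker lists.

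Values on each array are given for genes that passed in a comparison and for Atm, Atr, Brca1, Brca2, Fancd2, Fanca and Neil3; from each pathway or proliferation list, the 3 genes with the smallest p after AMD3100 and after G-CSF are named, except for some that are not reported here. Fanci, Fance, Fancl, Rad54l, the discordant probe pairs and other genes shown by array were chosen after their values were seen. The genes and lists were chosen with earlier results of these data known. Alternatives were quantile normalization, normexp (offset 50), the authors' table, other filters, the mean of a gene's probes, fits of the compared groups alone, an intensity trend, the slide as a block and leaving out each array. The block without marrow array 3 and the test of every probe were chosen after seeing the data.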

Additional observations from a re-analysis of the deposited data

How the results depend on the processing

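Of the 27 genes, 1 was called between G-CSF blood and marrow, 2 between AMD3100 blood and marrow, 0 between CWHM-823+tGro-b blood and marrow and 3 between G-CSF and AMD3100 blood. With the replicate block these counts were 2, 10, 1 and 13 (8 higher and 5 lower), and that between CWHM-823+tGro-b and AMD3100 blood went from 0 to 6. The blocked shares of all genes, higher and lower, were 8.24% and 11.3% for G-CSF, 5.84% and 7.7% for AMD3100 and 0.769% and 0.311% for CWHM-823+tGro-b. They were 23.1% and 39.6% between G-CSF and AMD3100 blood and 8.43% each between CWHM-823+tGro-b and AMD3100 blood. For the settings that follow, shares of all genes are not given here, so their counts are not set against a background. Block and quantile normalization together gave 10 for AMD3100, 1 for CWHM-823+tGro-b, 12 for G-CSF against AMD3100 blood and 6 for CWHM-823+tGro-b against AMD3100 blood. With the block and without marrow array 3 the counts were 9 for AMD3100, 11 for G-CSF against AMD3100 blood and 6 for CWHM-823+tGro-b against AMD3100 blood. Quantile normalization gave 5 for AMD3100, 1 for CWHM-823+tGro-b and 5 for G-CSF against AMD3100 blood; normexp gave 1, 1 and 5. The authors' table gave 4 for AMD3100 and 1 for CWHM-823+tGro-b. Without a filter AMD3100 had 1. With probes above background on all 12 arrays, where Neil3 is not tested, G-CSF had 0, AMD3100 1 and G-CSF against AMD3100 blood 7; an intensity trend gave 7 for the last. Leaving out 1 array gave 0 to 1 for G-CSF, 0 to 2 for AMD3100, 0 to 1 for CWHM-823+tGro-b and 1 to 6 for G-CSF against AMD3100 blood.

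The median of the 27 genes between G-CSF and AMD3100 blood, 0, became 0.37 with quantile normalization (also with the replicate block), 0.32 in the authors' table, 0.13 without a filter and 0.08 with the mean of a gene's probes, and ran from -0.05 to 0.22 when 1 array was left out. Between G-CSF and CWHM-823+tGro-b blood, 0.02 became 0.23 with quantile normalization, with that and the block, and in the authors' table. Between CWHM-823+tGro-b and AMD3100 blood, 0.07 became 0.40 with quantile normalization (also with the block), 0.25 in the authors' table, -0.04 with normexp or no filter and -0.02 with probes above background on all arrays, and ran from 0 to 0.2 when 1 array was left out. These medians against another blood group have no stable sign. Quantile normalization also moved the median of all genes, from -0.37 to -0.10 between G-CSF and AMD3100 blood and from -0.25 to -0.10 between G-CSF blood and marrow. The medians against marrow stayed below 0 in all 23 alternatives each. The cause of these changes was not tested. With the mean of a gene's probes, the AMD3100 difference was 0.45 for Bard1, -1.08 for Rad54b, -0.59 for Palb2 and -0.53 for Fanca. Signal over background limits Brca1 and Fancd2 after AMD3100, where no array was well above background.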
